A study of Saccharomyces cerevisiae with 16 samples.

Results

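The comparison set the response to benomyl of a Saccharomyces cerevisiae strain deleted for PDR1 (DeltaPDR1) against that of the wild type (WT) at 10 and 20 min after drug addition. Benomyl is an antimitotic drug that depolymerises microtubules. The strain differences rest on 4 of the 16 arrays of the series, 1 per strain and time, paired by time. They cover the 4058 of 6321 features with a value on all 4 arrays, 3768 of which carry a gene name. DeltaPDR1 cells with benomyl were read on each DeltaPDR1 array against DeltaPDR1 cells without it, and WT cells with benomyl on each WT array against WT cells without it. Both channels of a DeltaPDR1 array therefore carried the deletion, and a gene whose level differed between the strains before the drug does not show that difference in these ratios. All values are taken as log2 ratios of total RNA, strain with drug over strain without. A difference between the strains is therefore a difference of log2 ratios. The drug dose and the origin of the strains are not given in the sources used here. No culture was repeated as far as the labels say, so arrays of different times stand in for repeats. The p-values measure only the spread between arrays. In the main fit this was the spread of 12 arrays, which include those at 2 and 4 min and those of a strain deleted for YAP1.

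Pdr1 is a zinc cluster transcription factor that activates genes of pleiotropic drug resistance, among them the ABC exporters PDR5, SNQ2 and YOR1, together with its paralog Pdr3. It binds a short element in their promoters, can be activated by drugs that bind it directly, and also controls genes of membrane lipids, such as those of phospholipid and sphingolipid metabolism. Yap1, the other factor deleted in the series, turns on antioxidant and detoxifying genes, and several exporters and reductases are targets of both factors.

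The PDR1 probe had a value on 1 of the 5 DeltaPDR1 arrays, 0.39 at 4 min, and on 6 of 6 WT arrays, where it read 0.18 at 10 min and 0.26 at 20 min. The DeltaPDR1 arrays at 10 and 20 min had values for 5515 and 5202 probes, and the WT arrays for 5031 and 5869. The standard deviation of the ratios was 0.31 and 0.41 on these DeltaPDR1 arrays, against 0.40 and 0.54 on the WT arrays. The number of arrays limits the precision. DeltaPDR1 arrays held 157 to 317 distinct values each, against 909 to 2018 on the WT arrays, so the values of the strains were not written to the same resolution. Ratios on the DeltaPDR1 arrays also declined along the order of the probes in the table, with a Spearman rho across probes of -0.22 at 10 min and -0.36 at 20 min, against 0.02 and 0.01 on the WT arrays. Each strain difference was therefore also computed with a smooth trend along this order removed, and the part of the trend and of the resolution in the results was otherwise not tested.

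**Figure D1:**
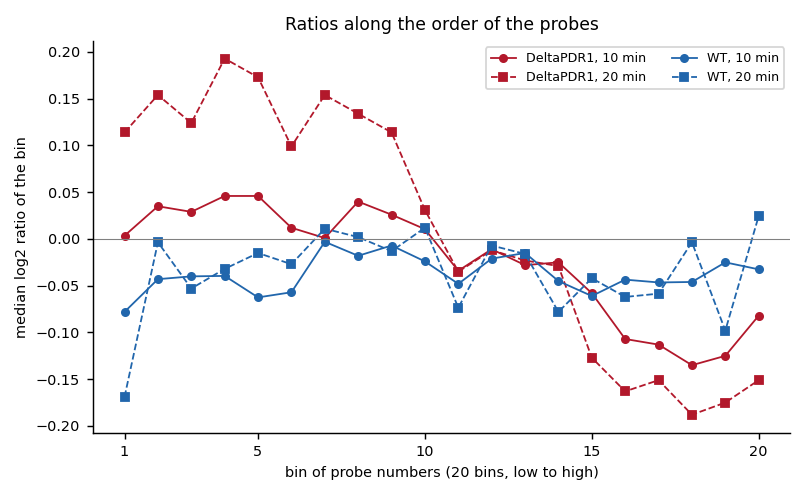
Median log2 ratio (strain with benomyl over strain without) in 20 bins of probe number, 1 line per array. The DeltaPDR1 array at 20 min ran between 0.19 in the early bins and -0.19 in the late bins, and the WT arrays showed no such slope.

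BTN2, a protein that sorts misfolded proteins to inclusions, the glutathione transferase ECM4 and the glycolytic aldolase FBA1 fell in DeltaPDR1 relative to WT at 10 and 20 min. The Golgi mannosyltransferase MNN1, the siderophore transporter SIT1 and ISU1, the scaffold on which iron-sulphur clusters are built, rose relative to WT. These 6 were the features that passed at a Benjamini-Hochberg adjusted p under 0.05 in a limma fit over 12 arrays of the 3 strains, 0.148% of the 4058 tested, 0.0739% in each direction. At an unadjusted p under 0.05 there were 743, or 374 with arrays scaled to the same spread, against 202.9 expected if no feature differed. A fit of the 4 arrays alone has 1 residual degree of freedom per gene and leans on the spread shared by all genes. It passed 75 features (1.85%), 44 lower (1.08%) and 31 higher (0.764%) in DeltaPDR1, the same 6 among them. With the probe-order trend removed 62 of the 75 still passed in that fit. With arrays scaled to the same spread the split of the 6 calls, 3 higher and 3 lower, became 0 higher and 3 lower.

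BTN2 stood at 1.55 and 1.60 in DeltaPDR1 at 10 and 20 min, against 4.54 and 4.17 in WT. BTN2 was above 0 on all 4 arrays, and every DeltaPDR1 value lay far below every WT value. Here and below, genes were mostly picked by the size of their difference, so a lack of overlap between the strains is partly built in. The share of all features without overlap was not counted. The difference, from n = 2 arrays per strain, was -2.78 ± 0.16 (SE from the fit of 12 arrays, adjusted p = 1.88e-05), a 6.88-fold weaker ratio. BTN2 passed in 11 of 11 other settings and whichever of the 12 arrays was left out. With arrays scaled to the same spread its difference was -2.22, and that of ECM4 was -1.82. ECM4 stood at 1.76 and 2.54 in DeltaPDR1, against 4.04 and 5.04 in WT. Its difference was -2.39 ± 0.26 (adjusted p = 0.00357), 5.24-fold, again with no overlap between the strains, and it was lost without the DeltaPDR1 array at 20 min (adjusted p = 0.0875). FBA1 stood at -1.30 and -1.40 in DeltaPDR1, against -0.01 and 0.18 in WT, a difference of -1.43 ± 0.16 (adjusted p = 0.00390). In contrast to BTN2 and ECM4, FBA1 was near 0 in WT and below 0 in DeltaPDR1. Its call was lost without the DeltaPDR1 or the WT array at 20 min, with an adjusted p of up to 0.137.

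MNN1 stood at 0.28 and -0.26 in DeltaPDR1, against -0.78 and -1.56 in WT, a difference of 1.18 ± 0.16 (adjusted p = 0.0183). It was the only one of the listed G1 cyclins and S phase genes to pass, and it was at or near 0 in DeltaPDR1 where it was low in WT. SIT1 stood at 0.48 and 0.16 in DeltaPDR1, against -0.89 and -1.02 in WT, a difference of 1.28 ± 0.19 (adjusted p = 0.0456). ISU1 stood at 1.13 and 1.32 in DeltaPDR1, against -0.03 and 0.56 in WT, a difference of 0.96 ± 0.15 (adjusted p = 0.0456). None of these 3 genes overlapped between the strains, which is partly built in since they were picked by their difference. The calls of SIT1 and ISU1 were the least stable, since leaving out 1 array ended that of ISU1 in 12 of 12 cases and that of SIT1 in 10 of 12, and with the trend along probe order removed SIT1 was lost. MNN1 was lost without the time block, with scaled arrays, and without the WT or the DeltaPDR1 array at 20 min.

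**Figure D2:**
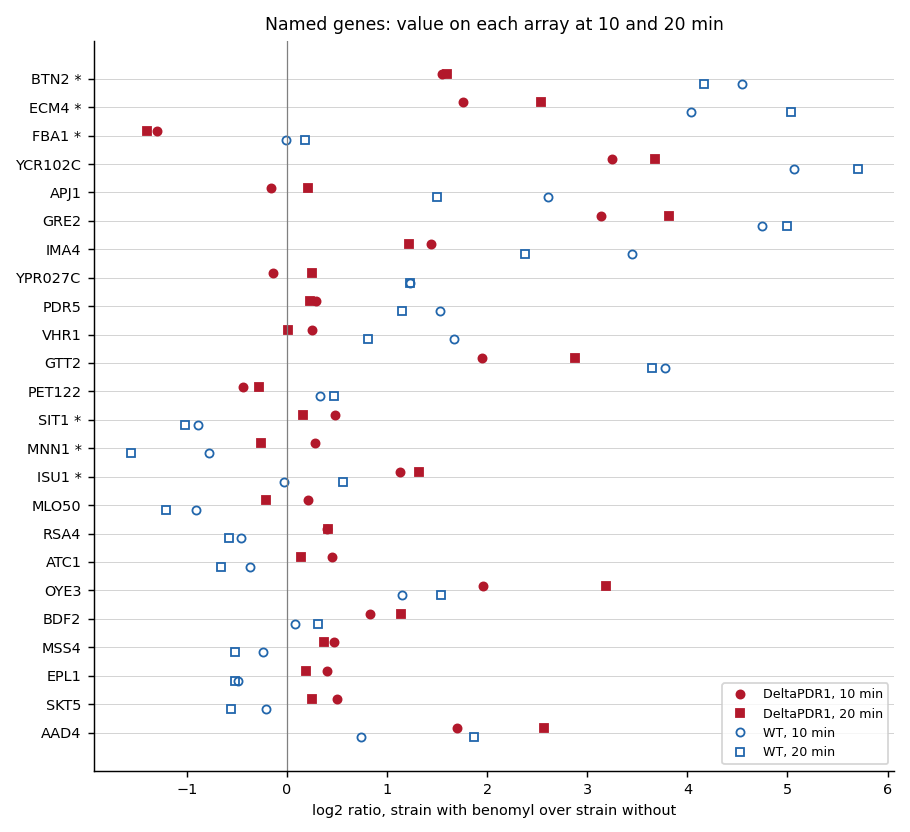
Log2 ratio on each of the 4 arrays (filled symbols DeltaPDR1, open symbols WT; circles 10 min, squares 20 min) for the 12 genes lowest and the 12 highest in DeltaPDR1 by the naming rule; an asterisk marks an adjusted p under 0.05. In each of the first 12 genes both DeltaPDR1 values lie left of both WT values. AAD4 at the bottom is the gene whose strains overlap, with 1.70 in DeltaPDR1 at 10 min and 1.87 in WT at 20 min. The genes were picked from these same values, so the separation is partly built in.

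In size rather than by test, 9 features (0.222%) differed at least 2-fold in the same direction at both times. The 7 lower in DeltaPDR1 (0.172%) were BTN2, ECM4, FBA1, YCR102C, APJ1, GRE2 and IMA4, and the 2 higher (0.0493%) were SIT1 and MNN1. Over all 4058 features the standard deviation of the difference was 0.31 at 10 min and 0.44 at 20 min, and the Pearson correlation of the differences at the 2 times was 0.34 across genes, which are not independent replicates and share the strain's arrays. YCR102C stood at 3.24 and 3.68 in DeltaPDR1, against 5.07 and 5.71 in WT (difference -1.92 ± 0.39, adjusted p = 0.0715). The reductase GRE2 stood at 3.14 and 3.82 in DeltaPDR1, against 4.75 and 4.996 in WT (difference -1.39 ± 0.40, adjusted p = 0.144). Both had high ratios in either strain, with no overlap between the strains, and did not pass. With scaled arrays the difference was -1.40 for YCR102C and -1.02 for GRE2.

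**Figure D3:**
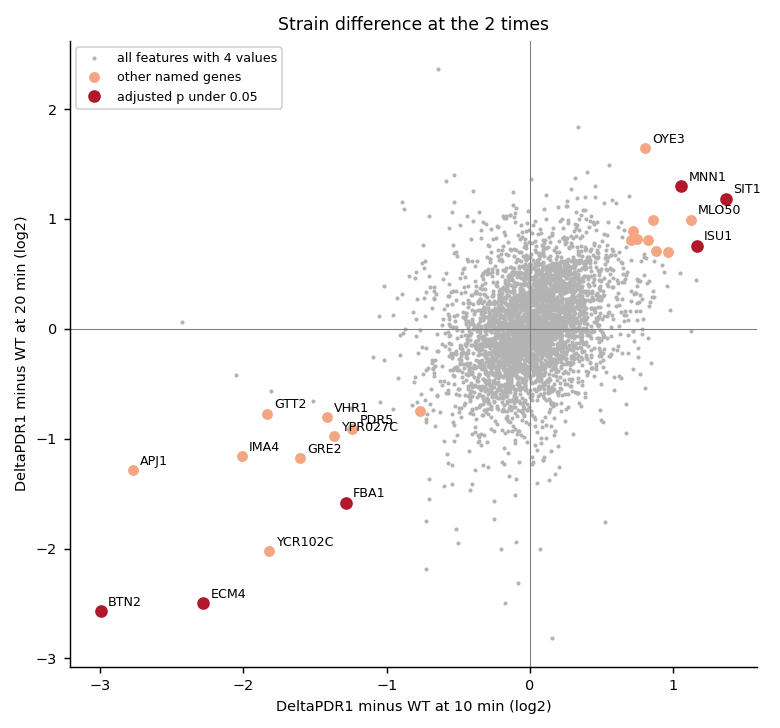
Strain difference (DeltaPDR1 minus WT, log2) at 20 min against that at 10 min for the 4058 features with 4 values. Points in the lower left were lower in DeltaPDR1 at both times, where BTN2 (-2.99 at 10 min, -2.57 at 20 min) and ECM4 (-2.28, -2.50) lie apart from the cloud; dark points passed the test.

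The targets of Pdr1 and Pdr3 were incompletely measured. Of 30 listed, 15 had the 4 values; 0 of these passed the test in either direction. In the fit of the 4 arrays 6 of the 15 passed, all lower in DeltaPDR1 (GRE2, CIS1, ICT1, PDR5, YLL056C and TPO4). Over all features 1.08% passed as lower in that fit. The median difference of the list was -0.47, against 0.01 over all features, with -1.02 at 10 min and -0.26 at 20 min. The median ratio of the 15 at 10 min was 0.26 in DeltaPDR1 and 0.95 in WT. At 20 min it was 0.23 in DeltaPDR1 and 0.20 in WT.

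PDR5, the main multidrug exporter of the family, stood at 0.29 and 0.23 in DeltaPDR1, against 1.53 and 1.15 in WT. The strains did not overlap, yet the difference of -1.08 ± 0.42 did not pass in the fit of 12 arrays (adjusted p = 0.224), while it did in the fit of 4 (adjusted p = 0.00375). With 1 array left out the PDR5 difference was -0.45 (without DeltaPDR1 at 10 min), -0.69 (without WT at 20 min) or as far as -1.71 (without DeltaPDR1 at 20 min), and it passed in none of these. ICT1, a lysophosphatidic acid acyltransferase, stood at -0.16 and 0.17 in DeltaPDR1, against 1.64 and 0.74 in WT (difference -1.18 ± 0.25, adjusted p = 0.0928). CIS1 stood at 1.79 and 2.27 in DeltaPDR1, against 3.84 and 2.68 in WT (difference -1.24 ± 0.42, adjusted p = 0.183). For both genes the gap between the strains was wider at 10 min than at 20 min. TPO4, a polyamine exporter, stood at 0.26 and 0.23 in DeltaPDR1, against 0.66 and 1.64 in WT (difference -0.91, adjusted p = 0.102), and YLL056C at 2.08 and 2.84 in DeltaPDR1, against 3.33 and 3.56 in WT (difference -0.98, adjusted p = 0.146). These 2 genes fall outside the naming rule and were chosen after their values were seen.

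The exporters SNQ2, YOR1 and TPO1 did not show the same order of the strains at both times. SNQ2, an ABC exporter, stood at 1.46 and 2.13 in DeltaPDR1, against 2.48 and 1.74 in WT (difference -0.31, adjusted p = 0.679). YOR1, an ABC exporter of organic anions, stood at 0.73 and 0.75 in DeltaPDR1, against 0.95 and 0.04 in WT (difference 0.25, adjusted p = 0.661). TPO1, another polyamine exporter, stood at 0.10 and 0.28 in DeltaPDR1, against 1.15 and 0.16 in WT (difference -0.47, adjusted p = 0.436). In all 3 genes DeltaPDR1 was lower than WT at 10 min and higher at 20 min, and the strains overlapped. Leaving out 1 array turned the sign of each difference: SNQ2 was at 0.54 and TPO1 at 0.02 without the DeltaPDR1 array at 10 min, and YOR1 was at -0.29 without that at 20 min.

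PDR3 had no value on the DeltaPDR1 arrays at 10 and 20 min and read 0.65 and -0.30 in WT. PDR10 had no value in DeltaPDR1, and RSB1 had values in DeltaPDR1, 0.22 and 0.25, but none in WT. PDR15 stood at -0.16 and 0.31 in DeltaPDR1, against 0.33 in WT at 20 min. PDR16, a phosphatidylinositol transfer protein, stood at 0.96 and 0.45 in DeltaPDR1, against 0.79 in WT at 20 min. For these 5 genes the strains could not be compared at both times. YAP1 itself, measured on all 4 arrays, stood at 0.09 and -0.25 in DeltaPDR1, against 0.08 and 0.34 in WT (difference -0.29, adjusted p = 0.412).

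Of 23 other drug and organic ion exporters, 17 had 4 values and 0 passed, with a median of 0.16 that was 0.02 after removal of the probe-order trend. AZR1, an exporter that gives azole resistance, stood at 1.07 and 2.28 in DeltaPDR1, against 0.74 and 0.45 in WT (difference 1.08, adjusted p = 0.144). TPO3, a polyamine exporter, stood at -0.77 and -1.76 in DeltaPDR1, against -0.07 and -0.39 in WT (difference -1.03, adjusted p = 0.122). SNG1, another member of the list, stood at 2.54 and 2.825 in DeltaPDR1, against 3.27 and 3.68 in WT (difference -0.79, adjusted p = 0.115). In the fit of the 4 arrays TPO3 and SNG1 passed as lower in DeltaPDR1 and AZR1 as higher. Of all features 1.08% passed as lower in that fit and 0.764% as higher. The weak acid exporter PDR12 stood at 0.58 and 1.44 in DeltaPDR1, against -0.35 and 0.92 in WT (difference 0.73, adjusted p = 0.187).

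Among the targets of Yap1, 31 of 38 listed had 4 values, and 1 of them, ECM4, fell while 0 rose. Of all features 0.0739% passed in each direction. In the fit of the 4 arrays 11 of the 31 were lower and 2 higher, against 1.08% and 0.764% of all features. The median difference was -0.35. At both times 20 of the 31 were below 0 and 3 above 0, against 1206 below and 1326 above among all 4058 features. The list was chosen with earlier results of these data known. Its median ratio in WT was 2.42 at 10 min and 2.225 at 20 min, against -0.05 and -0.04 over all features. WT values enter the difference, so these counts are not independent of that choice. GRE2 is in this list and in that of the Pdr1 and Pdr3 targets, so the counts of the 2 lists are not separate. GTT2, a glutathione transferase like ECM4, stood at 1.95 and 2.87 in DeltaPDR1, against 3.78 and 3.64 in WT (difference -1.30 ± 0.29, adjusted p = 0.0979), or -0.84 apart without the DeltaPDR1 array at 10 min. The glutathione reductase GLR1 stood at 0.35 and 0.75 in DeltaPDR1, against 0.93 and 1.89 in WT (difference -0.86, adjusted p = 0.116), and was chosen after its values were seen.

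Not all listed Yap1 targets had their lower values in DeltaPDR1. OYE3, an old yellow enzyme that reduces unsaturated carbonyls, stood at 1.96 and 3.18 in DeltaPDR1, against 1.15 and 1.54 in WT (difference 1.22 ± 0.22, adjusted p = 0.0715), or 0.78 apart without the DeltaPDR1 array at 20 min. AAD4, a putative aryl-alcohol dehydrogenase, stood at 1.70 and 2.57 in DeltaPDR1, against 0.74 and 1.87 in WT (difference 0.83, adjusted p = 0.122), or 0.53 apart without the WT array at 10 min. Its near-copy AAD14 differed by -0.08, and probes of the AAD family may share signal. FLR1, the exporter known for benomyl resistance, stood at 4.78 and 6.15 in DeltaPDR1, against 5.48 and 5.12 in WT (difference 0.16 ± 0.50). The order of the strains for FLR1 differed between the 2 times.

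Chaperone genes with 4 values were few: 10 of 37 listed. Of these 1, BTN2, fell and 0 rose, against 0.0739% of all features in each direction. APJ1 also passed as lower in the fit of the 4 arrays, where 1.08% of all features did. APJ1, a J-domain partner of Hsp70, stood at -0.16 and 0.21 in DeltaPDR1, against 2.61 and 1.497 in WT (difference -2.03 ± 0.40, adjusted p = 0.0798). Its ratio was near 0 in DeltaPDR1 and above 1 in WT, with no overlap. The APJ1 difference was -1.08 without the WT array at 10 min and -2.98 without that at 20 min, where it passed (adjusted p = 0.00106). SIS1, an essential J-domain protein, stood at 0.77 and 1.08 in DeltaPDR1, against 1.02 and 2.01 in WT (difference -0.59, adjusted p = 0.207). STI1, which links Hsp70 and Hsp90, stood at 0.65 and 1.12 in DeltaPDR1, against 1.18 and 1.63 in WT (difference -0.52, adjusted p = 0.207). The median of the 10 was -0.21, with YDJ1, the main cytosolic J-domain protein, at the upper end (0.45).

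The other 27 listed chaperone genes lacked a value that the comparison needs. Of these 7 had values of both strains at 1 matched time, 3 lower in DeltaPDR1 (HSP104, CUR1 and HCH1) and 4 higher (HSP26, HSP78, AHA1 and SSB2). The genes given next were chosen after their values were seen. HSP104, the disaggregase, stood at 0.27 and 0.46 in DeltaPDR1, against 2.30 in WT at 10 min, with no WT value at 20 min. HSP42, a small heat shock protein, stood at 0.49 in DeltaPDR1 at 10 min and at 3.56 in WT at 20 min. It had no matched time, so the strains could not be compared for it. HSP78, the mitochondrial disaggregase, stood at 0.36 in DeltaPDR1 at 10 min, against 0.12 at 10 min and 1.91 at 20 min in WT. SSA4, an inducible Hsp70, had no DeltaPDR1 value and read 0.67 and 0.92 in WT. AHA1, an Hsp90 co-chaperone, stood at 0.48 and 0.86 in DeltaPDR1, against 0.61 in WT at 20 min. These single values were not tested.

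Of 14 general stress genes of Msn2 and Msn4 with 4 values, of 25 listed, 0 passed, and the median was -0.24. HSP12, a small membrane-associated stress protein, stood at 0.10 and -0.10 in DeltaPDR1, against -0.06 and 2.71 in WT (difference -1.33 ± 0.51, adjusted p = 0.222). The WT value at 20 min alone set HSP12 apart. YGP1 stood at -0.11 and -0.78 in DeltaPDR1, against -0.01 and 0.74 in WT (difference -0.81, adjusted p = 0.207).

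ERO1, the enzyme that forms disulphides in the endoplasmic reticulum, was chosen after its values were seen as one of the larger differences outside the lists. It stood at 1.03 and 0.45 in DeltaPDR1, against 1.76 and 2.63 in WT (difference -1.46 ± 0.29, adjusted p = 0.0715).

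Lipid genes did not pass in any of the 4 lists. Only 0.148% of all features passed, so a count of 0 is near that share, here and in the other lists. Of 21 ergosterol genes with 4 values, of 30 listed, 0 passed and the median was 0.00. In the fit of the 4 arrays 2 were lower, against 1.08% of all features. These were ERG11, the lanosterol demethylase, and ERG1, the squalene epoxidase. ERG11 stood at -0.95 and -2.14 in DeltaPDR1, against -0.35 and -1.12 in WT (difference -0.81 ± 0.21, adjusted p = 0.122). ERG1 stood at -0.86 and -1.51 in DeltaPDR1, against -0.33 and -0.49 in WT (difference -0.77 ± 0.17, adjusted p = 0.100). Both genes were below 0 on all 4 arrays, lower in DeltaPDR1 at each time, while other members such as ERG8, the phosphomevalonate kinase, differed the other way (0.38).

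FAS1, a subunit of fatty acid synthase, stood at -0.76 and -2.40 in DeltaPDR1, against -0.51 and -0.67 in WT (difference -0.99 ± 0.27, adjusted p = 0.136). FAS2, the other subunit, stood at -0.05 and -1.43 in DeltaPDR1, against -0.15 and -0.26 in WT (difference -0.54, adjusted p = 0.287). In both subunits the gap came mainly at 20 min. CAT2, the carnitine acetyltransferase, stood at -0.36 and -0.29 in DeltaPDR1, against 0.27 and 0.46 in WT (difference -0.69, adjusted p = 0.0928). Of the 13 fatty acid genes with 4 values, of 23 listed, 0 passed and the median was -0.10. In the fit of the 4 arrays 1 of them, FAS1, passed as lower, against 1.08% of all features.

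Sphingolipid genes had 22 members with 4 values, of 29 listed, with 0 passing and a median of 0.05. IPT1, which makes the major complex sphingolipid and is a known Pdr1 target, stood at 0.80 and 0.59 in DeltaPDR1, against 0.55 and 0.04 in WT (difference 0.40, adjusted p = 0.247). Phospholipid and neutral lipid genes had 26 of 36 with 4 values, 0 passing and a median of -0.01. In the fit of the 4 arrays 0 sphingolipid genes passed, and 1 phospholipid gene, ICT1, passed as lower. Besides ICT1, PSD1, the mitochondrial phosphatidylserine decarboxylase, was among the lowest at -0.48 and -0.82 in DeltaPDR1, against -0.12 and 0.15 in WT (difference -0.66, adjusted p = 0.144). The median of the sphingolipid list was -0.01 with the probe-order trend removed, and that of the phospholipid list was 0.11 with the 30 s array subtracted and -0.06 with the trend removed.

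Of the enzymes of glycolysis, fermentation and acetate formation 25 of 38 listed had 4 values. FBA1 fell and 0 rose, against 0.0739% of all features in each direction. The median difference was -0.31, with -0.10 at 10 min and -0.61 at 20 min; 16 of the 25 were below 0 and 4 above 0 at both times, against 1206 below and 1326 above among all 4058 features. The triose phosphate isomerase TPI1 stood at -0.26 and -0.72 in DeltaPDR1, against 0.40 and 0.16 in WT (difference -0.77 ± 0.21, adjusted p = 0.129). TDH3, the main glyceraldehyde phosphate dehydrogenase, stood at -0.18 and -0.21 in DeltaPDR1, against 0.19 and 0.82 in WT (difference -0.70, adjusted p = 0.174). Its near-copies TDH1 and TDH2 differed by -0.44 and -0.56, and their probes may share signal. ALD6, the cytosolic aldehyde dehydrogenase, went the other way and stood at 1.77 and 2.96 in DeltaPDR1, against 1.37 and 1.53 in WT (difference 0.91 ± 0.29, adjusted p = 0.166).

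Of 37 genes of the citrate cycle and respiratory chain with 4 values, of 52 listed, 0 passed, and the median was -0.18, or -0.04 with the 30 s array subtracted. MDH1, the mitochondrial malate dehydrogenase, stood at -0.72 and -0.28 in DeltaPDR1, against 0.01 and 0.37 in WT (difference -0.69, adjusted p = 0.241). Amino acid synthesis genes had 33 of 52 with 4 values, 0 passing and a median of -0.18, or -0.29 with the probe-order trend removed. ORT1, the mitochondrial ornithine transporter, stood at 0.12 and -0.12 in DeltaPDR1, against 0.72 and 1.32 in WT (difference -1.02 ± 0.26, adjusted p = 0.122). GCN4, the activator of these genes, stood at -0.34 and -1.52 in DeltaPDR1, against -0.24 and -0.16 in WT (difference -0.73, adjusted p = 0.201).

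Sulphate assimilation genes had 21 of 32 with 4 values, 0 passing and a median of -0.07, or -0.15 with the 30 s array subtracted. MET14, the adenylylsulphate kinase, stood at 0.05 and -0.01 in DeltaPDR1, against 0.57 and 1.81 in WT (difference -1.17 ± 0.27, adjusted p = 0.102). MET16, the next enzyme of the pathway, stood at 0.33 and 0.09 in DeltaPDR1, against 0.26 and 2.09 in WT (difference -0.96, adjusted p = 0.261). Of the 4 arrays, MET14 and MET16 were highest on that of WT at 20 min. Biotin genes had 3 of 7 with 4 values, 0 passing and a median of -0.10, and drug resistance and stress regulators 15 of 20, 0 passing and a median of -0.05, or 0.04 with the probe-order trend removed. VHR1, an activator of biotin genes that is in both lists, stood at 0.25 and 0.01 in DeltaPDR1, against 1.67 and 0.81 in WT (difference -1.11 ± 0.24, adjusted p = 0.100). The VHR1 difference was -0.49 with the 30 s array subtracted and -0.67 without the DeltaPDR1 array at 10 min.

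The isomaltase gene IMA4 stood at 1.43 and 1.22 in DeltaPDR1, against 3.44 and 2.38 in WT (difference -1.59 ± 0.31, adjusted p = 0.0715). IMA3, whose sequence is nearly identical, stood at 1.16 and 1.53 in DeltaPDR1, against 1.97 and 1.07 in WT (difference -0.17, adjusted p = 0.745). The probes of these near-copies disagreed, so the difference of IMA4 is uncertain. Isomaltase and maltase genes had 5 of 13 with 4 values, 0 passing and a median of -0.17, or -0.41 with the 30 s array subtracted. No member of the lists of reserve carbohydrate genes (12 of 19 with 4 values, median 0.00), hexose transporters (11 of 22, median 0.04) or the pentose phosphate pathway (7 of 13, median 0.06) passed.

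Among the cell cycle genes MNN1 was the one that passed, and the others are given as values. Of 30 genes of G2/M, mitotic exit and M/G1 with 4 values, of 43 listed, 0 passed in either direction. The median was 0.26, or 0.17 with the probe-order trend removed. At both times 17 were above 0 and 5 below 0, against 1326 above and 1206 below among all 4058 features. AMN1, which acts in mitotic exit and daughter cell separation, stood at -0.30 and -0.26 in DeltaPDR1, against -0.75 and -1.57 in WT (difference 0.88 ± 0.20, adjusted p = 0.102). FAR1, the inhibitor of the G1 cyclin kinase, stood at -0.09 and -0.30 in DeltaPDR1, against -0.75 and -1.20 in WT (difference 0.78 ± 0.19, adjusted p = 0.116). In both genes the strains did not overlap, and both passed in the fit of the 4 arrays. Of all features 0.764% passed as higher in that fit. IQG1, needed for the contractile ring, stood at 0.14 and 0.16 in DeltaPDR1, against -0.33 and -0.81 in WT (difference 0.72, adjusted p = 0.107). MCM7, a subunit of the replicative helicase, stood at -0.18 and 0.01 in DeltaPDR1, against -0.44 and -1.11 in WT (difference 0.69, adjusted p = 0.169).

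Among G1 cyclins and S phase genes 28 of 40 had 4 values. Of these 1 (MNN1) rose and 0 fell, against 0.0739% of all features in each direction. The median was 0.07, or 0.03 with the probe-order trend removed. POL1, the catalytic subunit of DNA polymerase alpha, stood at -0.09 and -0.45 in DeltaPDR1, against -0.35 and -1.57 in WT (difference 0.69, adjusted p = 0.207). Mating genes had 19 of 28 with 4 values, 0 passing and a median of 0.24, or 0.18 with the trend removed. FUS3, the kinase of the pheromone pathway, stood at 0.26 and 0.29 in DeltaPDR1, against -0.36 and -0.63 in WT (difference 0.77 ± 0.15, adjusted p = 0.0715). FUS3 was above 0 in DeltaPDR1 and below 0 in WT at both times. With the probe-order trend removed its difference was 0.62. FAR1 belongs to both the mating and the G2/M list.

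Tubulin is the target of benomyl. Of 24 tubulin, tubulin folding and spindle checkpoint genes with 4 values, of 36 listed, 0 passed and the median was 0.00. TUB2, which encodes beta-tubulin, stood at -0.22 and -0.12 in DeltaPDR1, against 0.43 and 0.09 in WT (difference -0.42, adjusted p = 0.289). PAC2, a tubulin folding cofactor, stood at 0.40 and 0.40 in DeltaPDR1, against -0.41 and -0.25 in WT (difference 0.73 ± 0.16, adjusted p = 0.116). Histone genes had 8 of 11 with 4 values, 0 passing and a median of -0.23.

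SIT1 and ISU1 were the 2 of 21 iron regulon genes with 4 values, of 27 listed, that rose, and 0 fell. Of all features 0.0739% passed in each direction. With 1 array left out the SIT1 call stayed in 2 of 12 cases and the ISU1 call in 0 of 12. The median of the list was 0.06, or 0.11 with scaled arrays, close to that of all features, and other members lay on both sides. FET3, the multicopper oxidase of iron uptake, stood at -0.44 and -0.67 in DeltaPDR1, against -0.75 and -1.19 in WT (difference 0.41, adjusted p = 0.207). FIT3, a cell wall protein that retains siderophores, differed by -0.22, and ISU2, the paralog of ISU1, by 0.09.

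Of 52 ribosome biogenesis genes with 4 values, of 70 listed, 0 passed. Their median was 0.22, with 0.07 at 10 min and 0.39 at 20 min. At both times 31 were above 0 and 5 below 0, against 1326 above and 1206 below among all 4058 features. NOG2, a GTPase of the large ribosomal subunit, stood at -0.27 and -0.08 in DeltaPDR1, against -0.55 and -1.35 in WT (difference 0.78, adjusted p = 0.141). NOP56, a core protein of box C/D particles, differed the other way at -0.93 and -1.37 in DeltaPDR1, against -0.14 and -0.70 in WT (difference -0.73 ± 0.14, adjusted p = 0.0715). NOG1, a GTPase related to NOG2 in role, stood at -1.06 and -1.14 in DeltaPDR1, against -0.26 and -0.70 in WT (difference -0.62, adjusted p = 0.161). Of 21 proteasome genes with 4 values, of 33 listed, 0 passed, with a median of -0.19. Phosphate genes had 15 of 22 with 4 values, 0 passing and a median of -0.05.

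**Figure D4:**
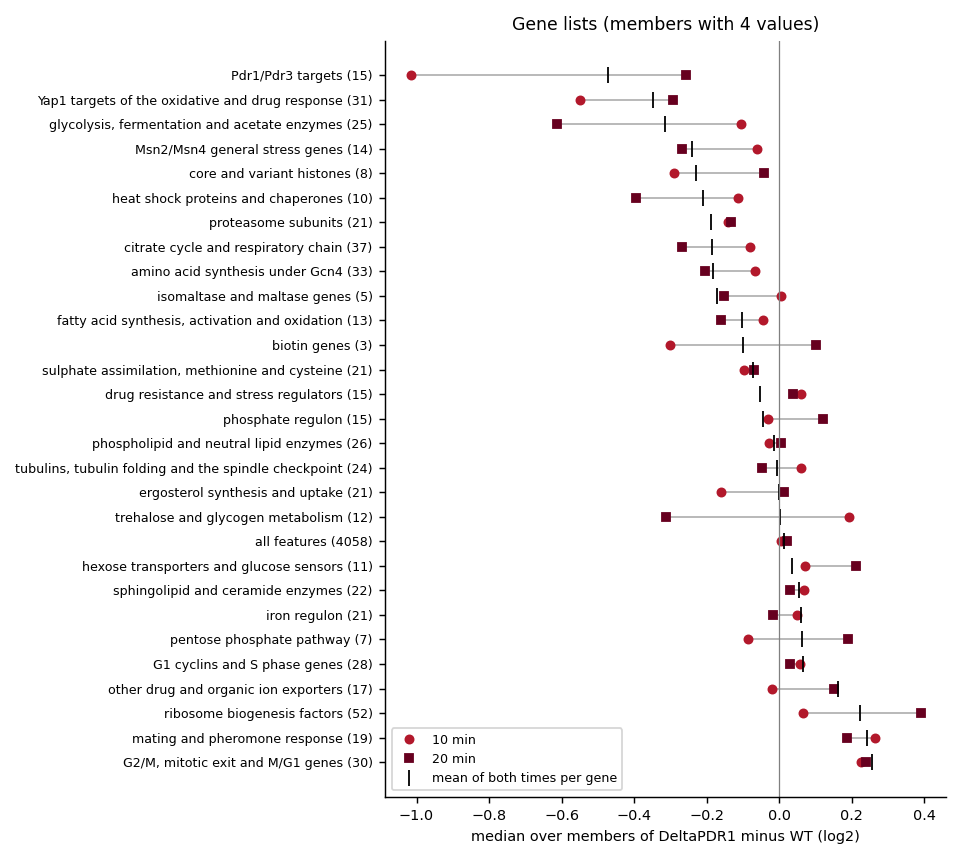
Median over the members with 4 values (their number in brackets) of the difference DeltaPDR1 minus WT (log2) at 10 min, at 20 min, and of the mean of both. The Pdr1 and Pdr3 targets have the lowest median (-0.47) with a wide gap between the times (-1.02 and -0.26), and the G2/M list lies at the other end (0.26, or 0.17 with the probe-order trend removed); medians carry no test.

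Many features with a high ratio in one strain also had a high ratio in the other. Among the 4058 features, 41 in DeltaPDR1 and 53 in WT had at least doubled on both arrays, 36 of them shared, which is 87.8% of the DeltaPDR1 and 67.9% of the WT features. On the 20 min arrays 60 features in DeltaPDR1 and 82 in WT lay above 1 (log2), 48 of them shared (80.0% and 58.5%). Below -1 lay 40 features in DeltaPDR1 and 38 in WT, and 6 were shared, that is 6 of 40 and 6 of 38. These counts rest on single arrays and carry no test. Of the 44 features lower in DeltaPDR1 in the fit of the 4 arrays, 36 were above 0 in WT at both times, and of the 31 higher, 22 were below 0 in WT at both times; the WT values enter the difference too, so these counts are not independent of it.

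At 2 and 4 min the same fit passed 0 of 3892 features in limma, and likewise 0 in each other setting run. At an unadjusted p under 0.05 there were 275 at these times, against 194.6 expected if no feature differed. BTN2 then stood at 0.74 and 1.19 in DeltaPDR1, against 0.28 and 0.85 in WT, a difference of 0.40 ± 0.16 (adjusted p = 0.655). The difference at 10 and 20 min minus that at 2 and 4 min was tested directly, with 365 of 3892 features at an unadjusted p under 0.05 (194.6 expected). It passed for 1 feature (0.0257%), BTN2, at -3.18 ± 0.23 (adjusted p = 0.000178). With arrays scaled to the same spread 0 features passed this test (smallest adjusted p = 0.0665). Each BTN2 value in DeltaPDR1 was above that of WT at 2 and 4 min and below it at 10 and 20 min. For ECM4 the early difference was 0.00 and the change -2.39 ± 0.36 (adjusted p = 0.0718), and for FBA1 they were 0.03 and -1.47 ± 0.23 (adjusted p = 0.0718). SIT1 (-0.27), MNN1 (-0.08) and ISU1 (0.02) also showed early differences smaller than those at 10 and 20 min, and their changes did not pass (adjusted p = 0.304, 0.153 and 0.304).

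The Pdr1 targets PDR5, ICT1 and TPO1, chosen here after their values were seen, were also set against WT at 2 and 4 min. PDR5 was at 0.08 and 0.17 in DeltaPDR1 at 2 and 4 min, against 0.21 and 1.35 in WT (early difference -0.65 ± 0.42, adjusted p = 0.724). ICT1 was at -0.10 and -0.06 in DeltaPDR1, against 0.31 and 0.88 in WT (early difference -0.67 ± 0.25, adjusted p = 0.655). TPO1 was at -0.02 and 0.03 in DeltaPDR1, against 0.74 and 1.06 in WT (early difference -0.89 ± 0.31, adjusted p = 0.616). In all 3 genes each DeltaPDR1 value was below the WT value of the same time, and none passed at 2 and 4 min. Over the targets of the list the median early difference was -0.07, and YLL056C (0.72), GRE2 (0.03) and YOR1 (0.02) were among those above 0. VHR1 was at 0.33 in DeltaPDR1 at 4 min, with no value at 2 min, against 0.75 and 1.28 in WT (early difference -1.06 ± 0.32, adjusted p = 0.523). PDR5 and TPO1 were below 0 in WT at 40 min, at -0.47 and -0.43, and DeltaPDR1 was not followed to 40 min.

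**Figure D5:**
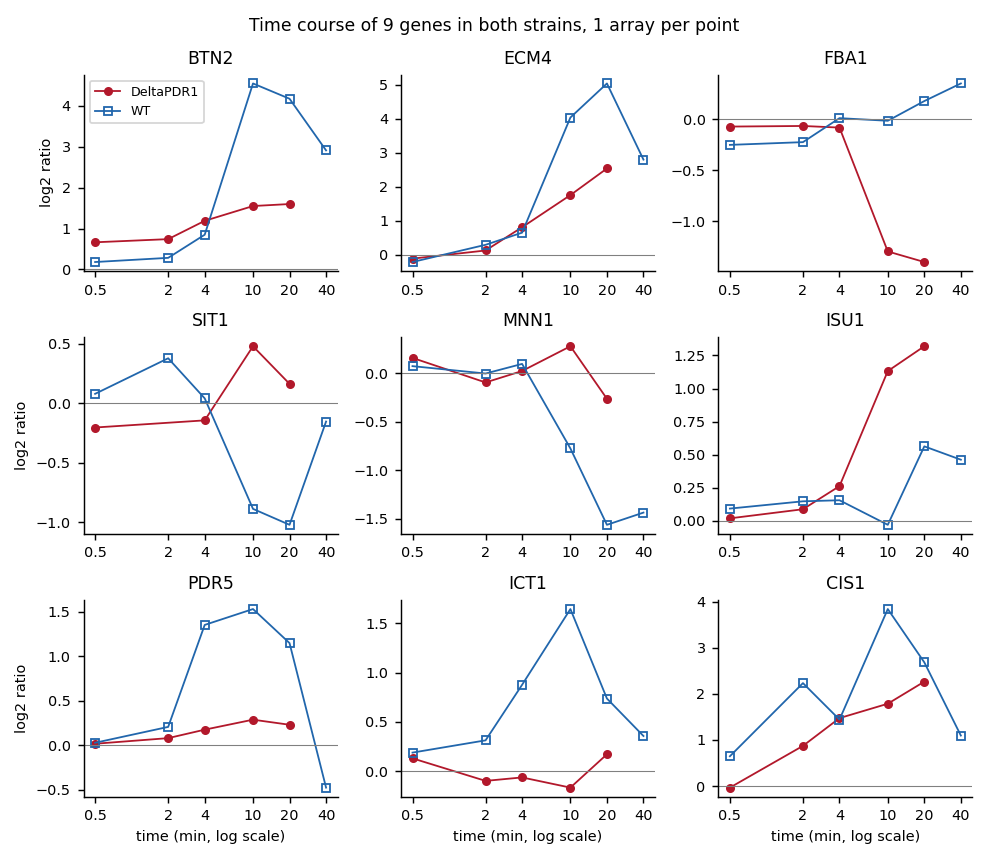
Log2 ratio against time (log axis, min) in DeltaPDR1 (filled circles) and WT (open squares) for the 6 genes that passed and 3 Pdr1 targets, 1 array per point. BTN2 and ECM4 part between 4 and 10 min, while PDR5 stays between 0.02 and 0.29 in DeltaPDR1 and reaches 1.53 in WT.

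The strain deleted for YAP1 (DeltaYAP1) was treated the same way, and its comparison with WT uses the same WT arrays, so the differences of the deletion strains are set side by side only. The YAP1 probe had a value on 5 of 5 DeltaYAP1 arrays, and the deleted stretch of the gene is not given in the sources used here. BTN2 stood at 2.02 and 1.91 in DeltaYAP1 and was thus low in both deletion strains (-2.78 for DeltaPDR1 and -2.39 for DeltaYAP1, each minus WT). ECM4 was near 0 in DeltaYAP1 (0.25 and -0.03), a difference of -4.43 there against -2.39 in DeltaPDR1. FBA1 differed by -1.43 in DeltaPDR1 and by -0.10 in DeltaYAP1, and ISU1 by 0.96 and -0.03 in the same order. PDR5 differed by -1.08 in DeltaPDR1 and by -0.21 in DeltaYAP1, where it read 2.24 and 0.00, and ICT1 by -1.18 and 0.03. Other Pdr1 and Pdr3 targets that passed in the fit of the 4 arrays were further below WT in DeltaYAP1. In the same order these were GRE2 (-1.39 and -4.55), CIS1 (-1.24 and -2.91) and YLL056C (-0.98 and -3.30). TPO4 was not (-0.91 and -0.54). OYE3 was higher than WT in DeltaPDR1 (1.22) and lower in DeltaYAP1 (-1.24), as were AAD4 (0.83 and -1.27) and ALD6 (0.91 and -1.01). MNN1 (1.18 and 0.94) and SIT1 (1.28 and 0.82) were higher than WT in both. Whether the deletion strains differ from each other in these genes was not tested.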

How the data were processed

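RNA of each strain with and without benomyl was read on spotted arrays with 2 channels, 1 array per strain and time. The deposited values are taken as log2 ratios, 1 column per array. Per the labels channel 1 held the strain with drug. The direction, drug over untreated, is read from that order since the dyes are not stated. Were it untreated over drug, all signs would be reversed. The base is not stated. Raised to base 2 the DeltaPDR1 values lie on an even grid (strength 0.944 or more of at most 1). Bases e (0.377 at most) and 10 (0.412 at most) do not give it. On the WT and DeltaYAP1 arrays no base gave such a grid (strength 0.157 at most), so base 2 is assumed for them. Each array is centred near 0; the normalisation and spot filters are not given in the sources used here. Spot intensities were not used here.

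Of 6338 probes 5628 carry 1 gene symbol, 0 several and 710 none; 5623 were updated through the RefSeq annotation (R64), 5 were not in it. Probes of 17 genes were averaged. A linear model (limma 3.58.1, R 4.3.3; lmFit, eBayes, two-sided) was fitted to the 12 arrays at 2, 4, 10 and 20 min of WT, DeltaYAP1 and DeltaPDR1 with strain by phase (2 and 4 min, 10 and 20 min) and time as a block. It leaves 4 residual degrees of freedom per complete gene, and shrinkage adds 6.72. Calls used a Benjamini-Hochberg adjusted p under 0.05 over all features tested. SE and p use the spread of all 12 arrays; times are not biological replicates, and p is too small if the late arrays spread more widely than the early ones. Trends along probe order were removed with lowess (span 0.3). The fit was tested on simulated data.

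Members and the 28 gene lists were chosen with earlier results of these data known. The naming rule took 12 genes per direction (those passing, then those with the largest difference at the weaker of the 2 times). It also took the 4 largest differences of each list, and PDR1, PDR3, YAP1 and 8 known Pdr1 targets. Not all genes under this rule are given in the text. A planned motif search in promoters was not run, and sequences were not used here. No coordinates are printed, since no genome build is stated for the probes.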

Additional observations from a re-analysis of the deposited data

Results flagged for a closer look

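BTN2 was the gene whose strain difference depended on time by a direct test. The difference DeltaPDR1 minus WT was -2.78 at 10 and 20 min and 0.40 at 2 and 4 min, a change of -3.18 ± 0.23 (limma, adjusted p = 0.000178). With arrays scaled to the same spread 0 features passed, the smallest adjusted p being 0.0665, so this call depends on the scaling. BTN2 in DeltaPDR1 read 1.19 at 4 min, 1.55 at 10 min and 1.60 at 20 min, against 0.85, 4.54 and 4.17 in WT at the same times. WT was still at 2.91 at 40 min, where DeltaPDR1 was not measured.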

How the results depend on the processing

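The count of 6 at 10 and 20 min was 75 with the 4 arrays alone, 3 without the time block, 3 with scaled arrays and 250 with the 30 s array subtracted (134 higher, 116 lower), where the error of that array enters both times and makes p too small. With the 4 arrays and the probe-order trend removed, an alternative chosen after seeing the data, it was 85 (28 higher, 57 lower), 62 of them among the 75. In the other settings it was between 4 and 8. Leaving out 1 array gave 1 to 60: 60 without DeltaPDR1 at 10 min, 33 without WT at 10 min, 3 without WT at 20 min and 1 (BTN2) without DeltaPDR1 at 20 min. Median subtraction gave 1 higher and 3 lower. The count of 1 for the change between times was 2 with the 8 arrays of DeltaPDR1 and WT, 2 without the time block, 0 with scaled arrays (254 at an unadjusted p under 0.05 in limma) and 3 with features that have all 12 values; leaving out 1 array gave 1 to 8, with 8 without WT at 10 min. The 9 features 2-fold apart at both times were 4 with scaled arrays and 18 with the 30 s array subtracted. YAP1 turned to 0.009 with the 30 s array subtracted. Leaving out 1 array gave -1.17 to 0.54 for SNQ2, -0.29 to 0.79 for YOR1 and -0.96 to 0.0165 for TPO1; SNQ2 and TPO1 turned without DeltaPDR1 at 10 min and YOR1 without DeltaPDR1 at 20 min. The causes were not tested. The genes named by direction and SNQ2, YOR1, TPO1 and YAP1, 28 in all, were refitted in each setting, those named from the lists alone were not. Of their 293 values in other settings 235 kept direction and side of the threshold, 12 lost and 45 gained the call and 1 turned; of 336 with 1 array left out these were 301, 27, 5 and 3. No replicate number links the arrays; the time block is the pairing.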

Other observations

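HRK1, a protein kinase that activates the plasma membrane proton pump, stood at -0.19 and -0.54 in DeltaPDR1 at 10 and 20 min, against 0.53 and 1.22 in WT (difference -1.24 ± 0.24; limma, adjusted p = 0.0715). It was chosen after its values were seen. COS1 stood at -0.51 and -2.65 in DeltaPDR1, against -0.34 and -0.16 in WT (difference -1.33 ± 0.43, adjusted p = 0.166), so its gap came at 20 min. IMD3, an IMP dehydrogenase of guanine nucleotide synthesis, stood at -0.60 and -2.14 in DeltaPDR1, against -0.05 and -0.73 in WT (difference -0.98 ± 0.25, adjusted p = 0.120). BAP3, an amino acid permease, stood at 0.97 and 0.92 in DeltaPDR1, against -0.19 and 0.47 in WT (difference 0.80 ± 0.17, adjusted p = 0.0928). These 4 genes passed in the fit of the 4 arrays and not in the fit of 12. With the probe-order trend removed BAP3 no longer passed in the fit of the 4 arrays (difference 0.69; limma, adjusted p = 0.0719).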
